A study of Mus musculus with 94 samples.

Results

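The genes described here mark the medium spiny neurons of the striatum: Drd2, Adora2a, Ppp1r1b, Rgs9, Penk, Pdyn, Tac1, Adcy5 and Gng7. Every probe set of the Affymetrix mouse array that the platform annotation assigns to one of these names alone was taken, which gave 14 of 45101 probe sets for 8 of the 9 genes, among 18194 genes named by the array in all. Adora2a was named by no probe set of the annotation used and was not analysed here. Each gene is represented below by its brightest probe set unless another is named, and all levels are RMA log2 signals, on which 0.38 is a 1.3-fold difference.

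RNA came from the right side of the brain of 11-week-old male C57BL6 mice, each given a single intraperitoneal injection of methylazoxymethanol acetate (MAM, 20 mg/kg) or vehicle. MAM is a cycad genotoxin that leaves O6-methylguanine lesions in DNA, and Mgmt encodes the enzyme that repairs these lesions. The groups were Mgmt-/- mice given MAM, Mgmt-/- mice given vehicle, wild-type (wt) mice given MAM and wt mice given vehicle, each killed 6, 24, 48 or 168 hr later. The 16 groups held 6 animals each, except 5 in wt vehicle at 48 hr, wt MAM at 168 hr and Mgmt-/- MAM at 168 hr, for 93 arrays of 94.

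Medium spiny neurons are the GABA neurons that make up most of the striatum and carry its output. They receive dopamine from the midbrain and answer it through cAMP, which D1 receptors raise and D2 receptors lower. Neurons of the indirect pathway carry Drd2 and Adora2a and make enkephalin from Penk, whereas those of the direct pathway carry D1 receptors and make dynorphin from Pdyn and substance P from Tac1. Adcy5, Gng7, Ppp1r1b and Rgs9 serve both kinds of neuron.

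Facts of the whole series that touch these genes are few. The array left out, from an Mgmt-/- animal given MAM at 168 hr, had a mean of 13.65 over 10 liver genes, against 4.52 to 7.31 in the other arrays, and its 8 striatal genes averaged 5.4, against 8.44 to 9.15. The Mgmt probe set did not separate the genotypes, with a median of 5.70 (5.09 to 6.45) over 47 Mgmt-/- arrays and 5.73 (5.49 to 6.21) over 46 wt arrays, and no source used here places its probes relative to the disrupted part of the gene. The animal numbers of the labels fall in 2 sets of 45 and 48 animals, which were taken as the study's 2 laboratories, although the labels do not say so. A 3'/5' index of RNA integrity from the array's control probes for Gapdh and beta-actin, in log2 units, had group means of 0.52 to 0.63 in Mgmt-/- MAM, 0.42 to 0.55 in Mgmt-/- vehicle, 0.33 to 0.44 in wt MAM and 0.31 to 0.37 in wt vehicle animals. It thus moved with both genotype and agent.

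The 8 measured genes had mean levels from the 57.7th to the 96.8th percentile of all probe sets. Penk, the enkephalin precursor, had a mean level of 10.6 and Tac1 of 10.3, the 96.8th and 95.9th percentile of all probe sets. Ppp1r1b, which encodes the dopamine- and cAMP-regulated phosphatase inhibitor DARPP-32, averaged 9.61, Adcy5, the main striatal adenylyl cyclase, 9.43, Gng7, the G-protein gamma subunit that couples receptors to that cyclase, 8.88, and Rgs9, which shortens G-protein signals at dopamine receptors, 8.43. Drd2, the D2 receptor, averaged 7.14 and Pdyn, the dynorphin precursor, 5.95, the 57.7th percentile. Levels of different genes rest on different probes and were not ranked. Of the 6 other probe sets, 5 had means of 3.75 to 4.53, and the sixth, a second probe set of Adcy5, averaged 7.93. In whole brain tissue, fewer striatal cells and less RNA per cell cannot be told apart.

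Ppp1r1b and Rgs9 lie on chromosome 11, each of the other genes has a chromosome of its own, and none lies on chromosome 7 with Mgmt. In GRCm38.p6 Drd2 spans chr9:49340360-49408177, Adcy5 chr16:35154494-35305743 and Tac1 chr6:7555061-7562978. Promoter sequence from RefSeq, build GRCm38.p6, was given for 8 start sites of 6 of the genes. The 250 bases before an annotated start site are shown for Drd2 and Adcy5, whose levels moved together most closely between animals, and for Tac1, whose level did not follow that of Drd2. The start site used lies at the start of the gene for Tac1, 43 bases inside it for Drd2 and 370 bases inside it for Adcy5, so that the Adcy5 window lies within the annotated gene. Capitals mark GGGCGG (the GC box) and TGACG (the core of the cAMP response element) on either strand, which did not overlap.
Drd2, chr9:49340153-49340402, plus strand: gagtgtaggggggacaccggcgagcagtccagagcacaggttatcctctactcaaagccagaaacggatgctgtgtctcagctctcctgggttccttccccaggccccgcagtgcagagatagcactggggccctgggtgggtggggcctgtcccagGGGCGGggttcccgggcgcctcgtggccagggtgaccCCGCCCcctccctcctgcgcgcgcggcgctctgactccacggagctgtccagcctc
Adcy5, chr16:35154614-35154863, plus strand: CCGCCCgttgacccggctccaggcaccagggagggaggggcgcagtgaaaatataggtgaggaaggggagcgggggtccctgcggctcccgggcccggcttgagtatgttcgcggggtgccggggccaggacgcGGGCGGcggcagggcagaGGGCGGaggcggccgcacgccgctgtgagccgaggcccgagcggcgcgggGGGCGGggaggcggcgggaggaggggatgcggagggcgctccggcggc
Tac1, chr6:7554811-7555060, plus strand: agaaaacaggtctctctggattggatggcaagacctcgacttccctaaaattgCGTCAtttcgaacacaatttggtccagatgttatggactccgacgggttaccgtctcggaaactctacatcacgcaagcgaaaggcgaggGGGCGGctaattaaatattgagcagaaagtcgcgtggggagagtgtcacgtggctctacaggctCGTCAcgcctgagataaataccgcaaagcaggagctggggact
GGGCGG stood 2 times in the Drd2 window, 4 times in the Adcy5 window and 1 time in the Tac1 window, and was held by 5 of the 8 windows against 32.7% of 32851 promoters. TGACG stood 2 times in the Tac1 window and in neither of the others, in 2 of the 8 windows against 17.8% of all promoters. The full palindrome TGACGTCA was in 0 of the 8, against 1.55% of all. The G and C content was 68.8% for Drd2, 78% for Adcy5 and 51.2% for Tac1.

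**Figure D1:**
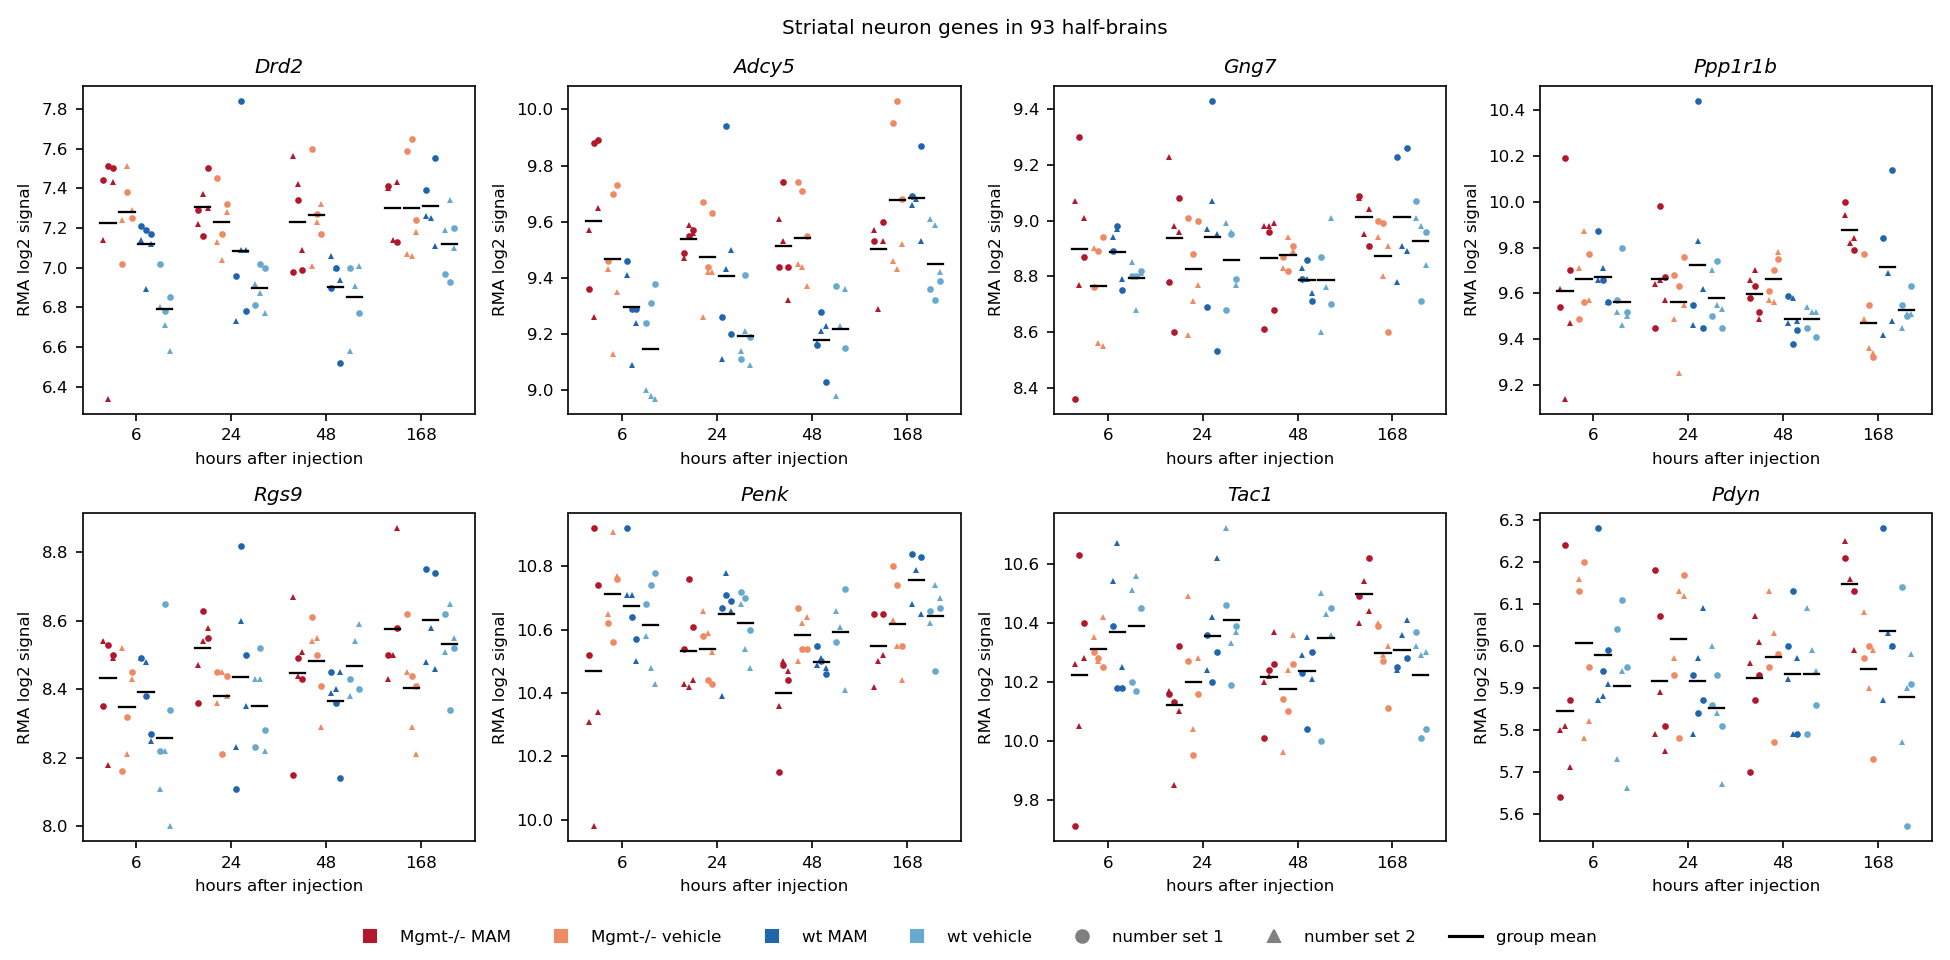
RMA log2 signal (vertical axes, each panel with its own range) of the brightest probe set of 8 striatal neuron genes by hours after injection, with 1 point per animal, colors for the 4 groups of genotype and agent, circles for number set 1, triangles for number set 2 and bars for group means. Drd2 and Adcy5 are lowest in wt vehicle animals at 6 hr (means 6.79 and 9.15), and Ppp1r1b at 168 hr is higher in every Mgmt-/- MAM animal than in any Mgmt-/- vehicle animal.

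The first question was whether the level of these genes depended on genotype in animals that received no MAM. Drd2 was higher in Mgmt-/- than in wt brains at 6 and 48 hr after vehicle, by 1.3-fold or more, and Adcy5 was higher at the same times by less. The other 6 genes differed by -0.21 to 0.18, and none of them passed the test. Probe sets were called where the adjusted p of limma's moderated test was below 0.05 and the fold above 1.3, among those whose effects did not differ between the laboratories (p above 0.15).

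Drd2 at 6 hr had a lowest, median and highest level of 7.02, 7.27 and 7.51 in Mgmt-/- vehicle animals, against 6.58, 6.79 and 7.02 in wt vehicle animals. The groups met at 7.02 but did not overlap. The difference was 0.49 (SE 0.13, limma adjusted p = 0.0198), with 0.34 and 0.65 in the first and second number set. At 48 hr the levels were 7.01, 7.25 and 7.60 in 6 Mgmt-/- vehicle animals, against 6.58, 6.77, 6.91, 7.0 and 7.01 in 5 wt vehicle animals. The ranges overlapped only at 7.01, and the difference was 0.42 (SE 0.12, limma adjusted p = 0.0398), with 0.46 and 0.35 in the number sets. At 24 hr Drd2 again did not overlap, with 7.04, 7.22 and 7.45 in Mgmt-/- vehicle animals against 6.77, 6.89 and 7.02 in wt vehicle animals, but its difference of 0.34 (SE 0.12) had a limma adjusted p of 0.0869. At 168 hr the laboratory test set it aside, with 0.46 and -0.10 in the number sets and 0.18 (SE 0.10) over both.

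Drd2 was thus the only 1 of 7 kept genes called at 6 hr, where 3.57% of all kept probe sets were, and at 48 hr, where 3.01% were. At 24 hr 0 of 7 were called against 4.21%, and at 168 hr 0 of 2 against 0.0874%. Averaged over the 4 times in a fit of all 93 arrays, Drd2 was 0.35 (SE 0.06) higher in Mgmt-/- vehicle animals (limma adjusted p = 6.11e-06). That average was below 1.3-fold and no call, and 31.9% of all probe sets had an adjusted p below 0.05 there. With each animal left out in turn, the 6 hr call was lost for 5 of 24 animals. Without 1 Mgmt-/- vehicle animal the adjusted p rose above 0.05, at a log2 difference of 0.43. Without any of 4 others, 3 Mgmt-/- MAM and 1 Mgmt-/- vehicle, the laboratory test set the probe set aside. The 48 hr call was lost for 8 of 23, 4 Mgmt-/- vehicle and 3 wt vehicle animals (0.34 at the lowest) and 1 Mgmt-/- MAM animal without which it was set aside. With array weights Drd2 was called at 24 hr (0.39, adjusted p = 0.00248) and 48 hr (0.46) but not at 6 hr (0.34, limma adjusted p = 0.0985). The ordinary linear model lost the 48 hr call (adjusted p = 0.0762), and under cyclic loess normalization the laboratory test set Drd2 aside at 6 hr (0.52).

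Adcy5 had levels of 9.13, 9.45 and 9.73 in Mgmt-/- vehicle animals at 6 hr, against 8.97, 9.12 and 9.38 in wt vehicle animals. At 48 hr they were 9.37, 9.50 and 9.74, against 8.98, 9.15, 9.23, 9.36 and 9.37 in the 5 wt vehicle animals. The groups overlapped at 6 hr and did not at 48 hr. The differences were 0.32 (SE 0.09, limma adjusted p = 0.0268) and 0.32 (SE 0.08, limma adjusted p = 0.0287), both below 1.3-fold. At an adjusted p below 0.05 with no fold threshold, Adcy5 and Drd2 were 2 of 7 genes at 6 hr against 8.01% of kept probe sets, and 2 of 7 at 48 hr against 4.63%. At 24 hr Adcy5 differed by 0.28 (SE 0.10, limma adjusted p = 0.078). Over the 4 times it was 0.29 (SE 0.05) higher (limma adjusted p = 8.13e-07), where 31.9% of all probe sets passed.

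The second Adcy5 probe set differed by 0.10, 0.02, -0.04 and 0.08 at the 4 times and did not pass. Which transcripts each probe set detects was not tested. The 3'/5' index rose with the 2 genes, at 0.43 ± 0.02 in Mgmt-/- and 0.31 ± 0.02 in wt vehicle animals at 6 hr (SD, n = 6 each) and 0.42 ± 0.06 (n = 6) and 0.33 ± 0.03 (n = 5) at 48 hr. With that index as a covariate and no laboratory filter, the difference was 0.40 for Drd2 and 0.13 for Adcy5 at 6 hr, and 0.31 and 0.24 at 48 hr, with limma adjusted p of 0.171 to 0.436 and no call. In the fit of all arrays with the index, Drd2 differed by 0.24 (limma adjusted p = 0.0226) and Adcy5 by 0.15 (limma adjusted p = 0.0491).

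The remaining genes gave no call. Ppp1r1b at 48 hr did not overlap between the genotypes, at 9.56, 9.66 and 9.78 in Mgmt-/- vehicle animals against 9.41, 9.45, 9.52, 9.52 and 9.54 in wt vehicle animals, but its 0.18 (SE 0.06) had a limma adjusted p of 0.12. Tac1 was 0.21 (SE 0.10) lower on the log2 scale at 24 hr, with a limma adjusted p of 0.177. Of the 32 gene and time combinations 20 were above 0, and the medians over the 8 genes were 0.10, 0.00, 0.07 and 0.02 at 6, 24, 48 and 168 hr, against 0.02, 0.04, 0.01 and 0.02 over all genes.

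**Figure D2:**
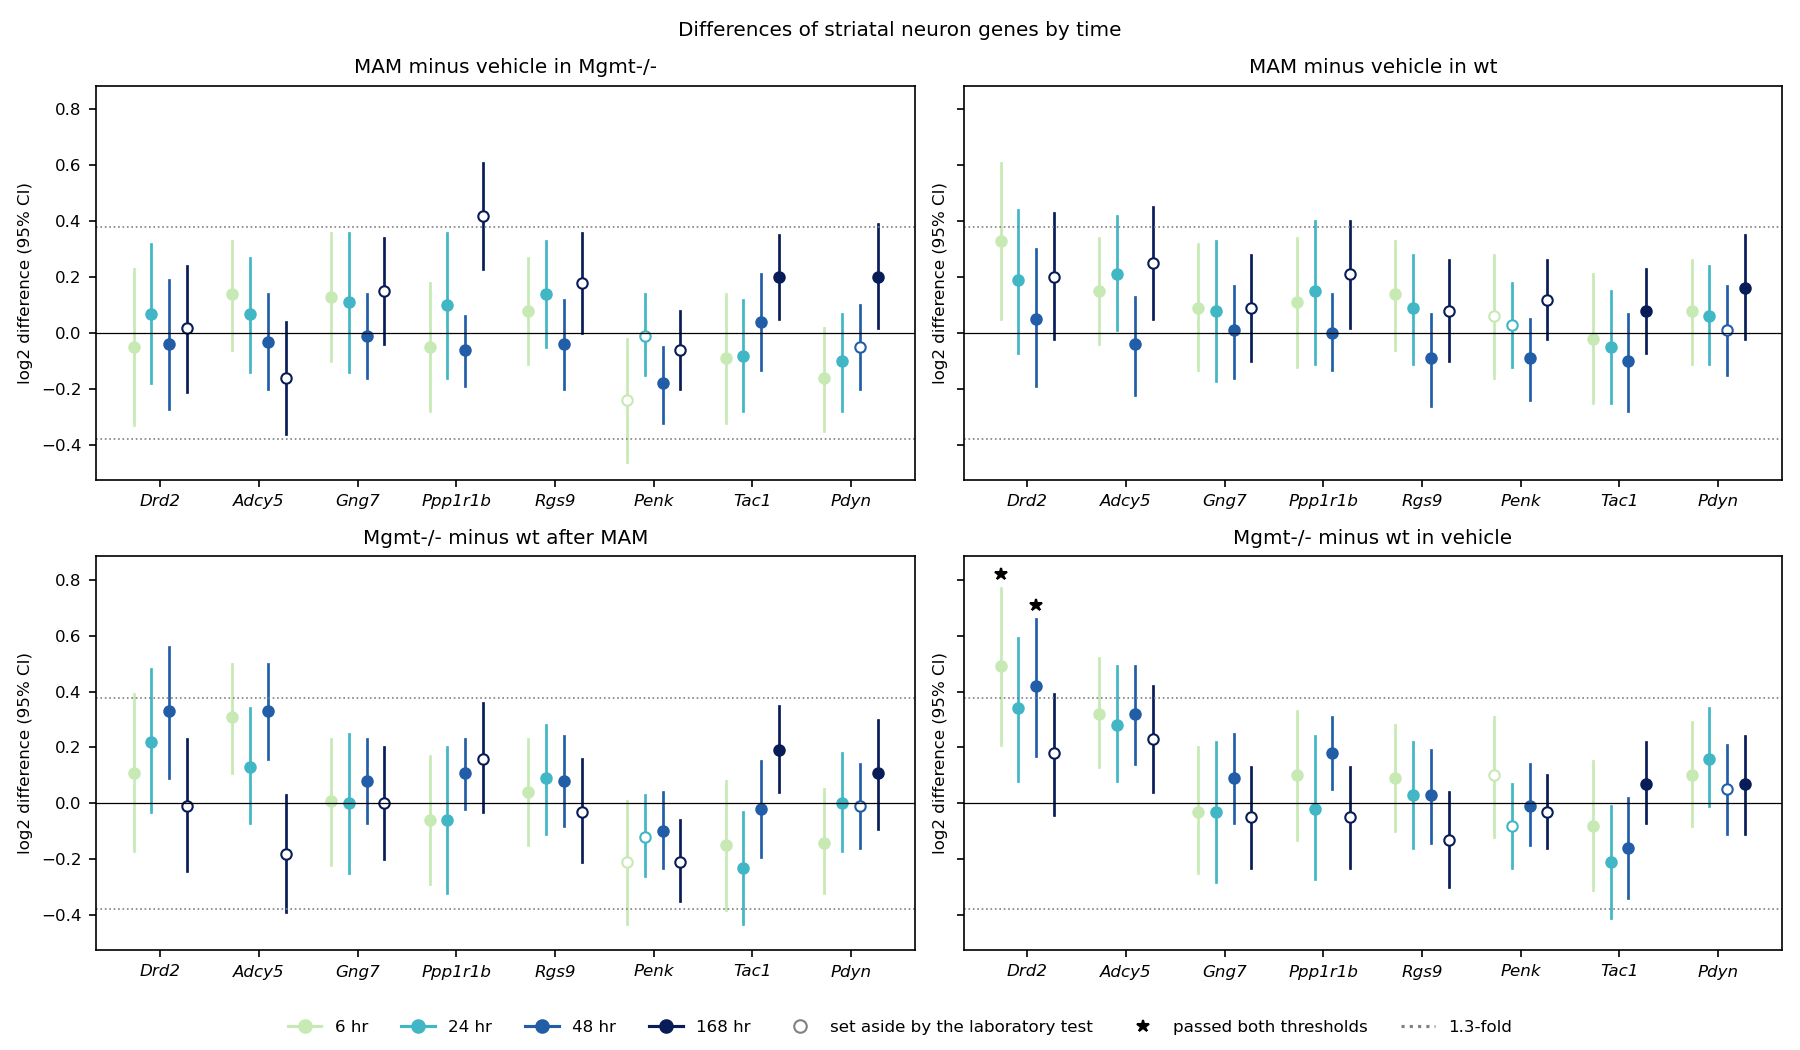
Log2 difference (vertical axes) with its 95% confidence interval for 8 genes at 4 times in 4 contrasts. Filled points were kept by the laboratory test and open points set aside, dotted lines mark 1.3-fold, and stars mark the calls, which are Drd2 at 6 hr (0.49) and 48 hr (0.42) between the vehicle groups.

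The same comparison was made after MAM. At 48 hr the levels of Drd2 were 6.98, 7.21 and 7.56 in Mgmt-/- MAM animals and 6.52, 6.97 and 7.06 in wt MAM animals, a difference of 0.33 (SE 0.11, limma adjusted p = 0.0414) that stayed below 1.3-fold. At 6 and 24 hr Drd2 differed by 0.11 and 0.22, and at 168 hr, where it was set aside, by -0.01. Adcy5 was higher by 0.31 (SE 0.09, limma adjusted p = 0.0205) at 6 hr and by 0.33 (SE 0.08, limma adjusted p = 0.00552) at 48 hr. Its 48 hr levels of 9.32, 9.49 and 9.74 in Mgmt-/- MAM animals lay wholly above the 9.03, 9.19 and 9.28 of wt MAM animals. No gene was called with the fold threshold, against 7.29%, 5.28%, 9.33% and 1.52% of kept probe sets at the 4 times. Without it, 1 of 7 genes passed at 6 hr (16.4% of probe sets) and 2 of 7 at 48 hr (20.5%), by the brightest probe set. Dimmer probe sets of Tac1 (0.28, SE 0.10, limma adjusted p = 0.0437) at 6 hr and of Adcy5 (0.32, SE 0.09, limma adjusted p = 0.0128) at 48 hr passed too. Their mean levels were 4.21 and 4.53, and their r with the brightest probe set between animals was -0.25 and -0.08. The brightest Tac1 probe set averaged 10.22 in Mgmt-/- MAM and 10.37 in wt MAM animals at 6 hr, the opposite direction. With the 3'/5' index as a covariate and no laboratory filter, Adcy5 differed by -0.11 at 6 hr and by 0.16 at 48 hr (limma adjusted p = 0.747 and 0.661), and Drd2 by 0.08 at 48 hr (limma adjusted p = 0.902). The ordinary linear model gave Drd2 an adjusted p of 0.0672 there.

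Averaged over the 4 times, Penk was the 1 gene that passed as lower in Mgmt-/- brains after MAM. It was 0.16 (SE 0.04) lower in Mgmt-/- MAM than in wt MAM animals (log2 difference -0.16, limma adjusted p = 9.63e-04, 42.2% of all probe sets passing), against -0.01 (SE 0.04) between the vehicle groups. Drd2 differed by 0.16 (SE 0.06, limma adjusted p = 0.0338) and Adcy5 by 0.15 (SE 0.05, limma adjusted p = 0.00921) in the same average. At 168 hr Penk measured 10.42, 10.50, 10.52, 10.65 and 10.65 in Mgmt-/- MAM animals, against 10.65, 10.68, 10.79, 10.83 and 10.84 in wt MAM animals. The groups overlapped only near 10.65. The difference was -0.21 (SE 0.07) and the laboratory test set the probe set aside there. It was also set aside at 6 and 24 hr, and the average over the 4 times used no laboratory filter. Tac1 had the lowest single value, -0.23 (SE 0.10, limma adjusted p = 0.121) at 24 hr, and the opposite sign at 168 hr (0.19, SE 0.08, limma adjusted p = 0.19).

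The next question was the response to MAM within each genotype. No striatal gene was called in Mgmt-/- brains at any of the 4 times under the laboratory filter, where 1.83%, 0.699%, 0.461% and 0.493% of kept probe sets were called, and none in wt brains, where 0%, 0%, 0% and 0% were. At an unadjusted p below 0.05 and without that filter, 6 of the 32 gene and time combinations passed in Mgmt-/- brains. They were 1, 0, 1 and 4 of 8 at the 4 times, against 14.4%, 11.1%, 9.55% and 10% of all probe sets. In wt brains 4 of 32 passed, 1, 1, 0 and 2 of 8, against 3.09%, 5.76%, 15% and 3.86%. The kept genes numbered 7, 7, 7 and 2 of 8 at the 4 times. Penk was set aside at 6 and 24 hr, Pdyn at 48 hr, and every gene except Pdyn and Tac1 at 168 hr.

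Ppp1r1b at 168 hr had the largest MAM difference of the 8 genes. Mgmt-/- animals given MAM measured 9.79, 9.82, 9.84, 9.94 and 10, against a lowest, median and highest of 9.32, 9.42 and 9.77 in Mgmt-/- animals given vehicle. Every MAM animal was above every vehicle animal. The difference was 0.42 (SE 0.09, limma adjusted p = 0.0289 over all probe sets), with 0.35 and 0.47 in the number sets, but the laboratory test set the probe set aside. Without that filter it was 1 of 8 genes called, against 0.508% of all probe sets. In wt brains the same contrast was 0.21 (SE 0.09), with 9.42, 9.48, 9.69, 9.84 and 10.14 after MAM against 9.45, 9.51 and 9.63 after vehicle, and the interaction was 0.21 (SE 0.13, limma adjusted p = 0.795). At the earlier times the Mgmt-/- difference was -0.05, 0.10 and -0.06. The 168 hr value was 0.41 with the 3'/5' index as a covariate (limma adjusted p = 0.025), and its adjusted p rose above 0.05 without any of 6 animals, 3 given MAM and 3 given vehicle (0.37 to 0.48 with each animal left out in turn).

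None of the peptide genes was called at a single time. Tac1 at 168 hr measured 10.40, 10.44, 10.49, 10.54 and 10.62 in Mgmt-/- MAM animals, against 10.11, 10.30 and 10.40 in Mgmt-/- vehicle animals, a difference of 0.20 (SE 0.07, limma adjusted p = 0.301). Pdyn there differed by 0.20 (SE 0.09, limma adjusted p = 0.438). Penk at 48 hr ran the other way, at 10.15, 10.45 and 10.50 after MAM against 10.50, 10.58 and 10.67 after vehicle, a log2 difference of -0.18 (SE 0.07, limma adjusted p = 0.351). Neither gene overlapped between the groups there, although the printed ranges met at 10.40 for Tac1 and 10.50 for Penk. Averaged over the times Penk was 0.12 (SE 0.04) lower after MAM in Mgmt-/- brains (log2 difference -0.12, limma adjusted p = 0.026, 11.6% of all probe sets passing) and differed by 0.03 (SE 0.04) in wt brains. That average used no laboratory filter, and the laboratory test set Penk aside at 6, 24 and 168 hr. In Mgmt-/- brains at 6 hr, number set 1 had 10.52, 10.74 and 10.92 after MAM against 10.56, 10.62 and 10.76 after vehicle. Number set 2 had 9.98, 10.31 and 10.34 after MAM against 10.65, 10.77 and 10.91 after vehicle. The average stayed below 1.3-fold and was no call. The adjusted p of Penk rose above 0.05 without either of 2 Mgmt-/- MAM animals, at 6 and 48 hr (log2 difference -0.10 at the smallest). It also did under cyclic loess normalization (-0.10, adjusted p = 0.0742).

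In wt brains the direction was upward for most genes, without a call. Drd2 at 6 hr measured 6.89, 7.15 and 7.21 after MAM and 6.58, 6.79 and 7.02 after vehicle, a difference of 0.33 (SE 0.13, limma adjusted p = 0.867). Of the 8 genes 7, 7, 4 and 8 were above 0 at the 4 times. Their medians were 0.10, 0.08, -0.02 and 0.14, against 0.04, 0.01, 0.00 and -0.01 over all genes. Since the genes vary together between animals, as described below, these counts are not 8 separate observations. Averaged over the times, Drd2 differed by 0.19 (SE 0.06) and Adcy5 by 0.14 (SE 0.05), with limma adjusted p of 0.471 and 0.47, where 0% of probe sets passed. The Mgmt-/- averages were -0.00 (SE 0.06) and 0.00 (SE 0.05).

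Whether MAM acted differently in the genotypes was tested by the interaction. No striatal gene was called, against 0.13%, 0.0509%, 0.9% and 0.0718% of kept probe sets. With the laboratory filter, 1 of 7 kept genes had an unadjusted p below 0.05 at 6 hr, against 9.78% of kept probe sets, and 0 at the later times. Without the filter, 1 of 32 combinations had an unadjusted p below 0.05, against 6.63%, 5.04%, 17% and 7% of all probe sets at the 4 times. That was Adcy5 at 168 hr, with -0.41 (SE 0.14, limma adjusted p = 0.436), -0.75 and -0.09 in the number sets, and was set aside by the laboratory test. There Adcy5 measured 9.29, 9.53, 9.53, 9.57 and 9.60 in Mgmt-/- MAM animals against 9.43, 9.60 and 10.03 in Mgmt-/- vehicle animals, and 9.53, 9.66, 9.68, 9.69 and 9.87 in wt MAM animals against 9.32, 9.41 and 9.61 in wt vehicle animals. Drd2 had an interaction of -0.38 (SE 0.19, limma adjusted p = 0.509) at 6 hr.

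Across the 16 groups, 4 of the 8 genes differed by limma's F test, against 32.7% of all probe sets. These were Adcy5 (F = 6.96, adjusted p = 3.96e-08), Drd2 (F = 4.04, adjusted p = 1.61e-04), Penk (F = 2.68, adjusted p = 0.0101) and Tac1 (F = 2.23, adjusted p = 0.0375). Rgs9 and Ppp1r1b had adjusted p of 0.0505 and 0.0645, Pdyn 0.267 and Gng7 0.587. The group means spanned 0.54 for Adcy5, 9.15 in wt vehicle at 6 hr to 9.69 in wt MAM at 168 hr, and 0.52 for Drd2, 6.79 in wt vehicle at 6 hr to 7.31 in Mgmt-/- MAM at 24 hr. For Ppp1r1b the span was 0.41, for Tac1 0.38, for Penk 0.36, for Rgs9 0.34, for Pdyn 0.31 and for Gng7 0.24.

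In vehicle animals the later times were compared with 6 hr. No striatal gene was called, at 24, 48 and 168 hr against 0%, 0% and 0% of probe sets in Mgmt-/- brains and 0.00222%, 0.00887% and 0.142% in wt brains. Drd2, Adcy5 and Rgs9 had their lowest group mean in wt vehicle at 6 hr and were 0.33 (SE 0.12), 0.30 (SE 0.09) and 0.27 (SE 0.09) higher at 168 hr, with limma adjusted p of 0.32, 0.152 and 0.18. Between number sets 2 and 1, Adcy5 differed by -0.14 (SE 0.03, limma adjusted p = 0.00108), Penk by -0.08 (SE 0.03, limma adjusted p = 0.0237) and Tac1 by 0.09 (SE 0.03, limma adjusted p = 0.0487). These were 3 of 8 genes against 21.3% of all probe sets, and none reached 1.3-fold.

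The last question was how the genes varied together between animals of the same group. For each gene the mean of the same group and number set was taken from each animal's level, which left 93 deviations. Their SD within groups was 0.209 for Drd2, the 82.5th percentile of all probe sets, 0.173 for Ppp1r1b, 0.172 for Gng7, 0.162 for Tac1, 0.153 for Adcy5, 0.147 for Rgs9, 0.141 for Pdyn and 0.11 for Penk, the lowest of them, at percentile 12.2. The family held 164 correlations, each tested by permuting animals within group and number set 100000 times, two-sided, with Benjamini-Hochberg adjustment, and 1e-05 was the smallest p this can give.

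All 28 pairs of genes had a Pearson r above 0, and 14 of them passed. The highest was between Drd2 and Adcy5, the receptor and the cyclase it inhibits (r = 0.74, permutation p = 1e-05, adjusted p = 1.82e-04; rho = 0.68, permutation p = 1e-05). It was 0.78 and 0.70 in the number sets, and 0.68 without the 2 animals farthest from the median of Drd2. Adcy5 and Gng7, the cyclase and its G-protein subunit, followed (r = 0.72, adjusted p = 1.82e-04 by permutation; rho = 0.62), with 0.82 and 0.49 in the number sets and 0.71 without 2 animals.

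All 10 pairs among the signaling genes Drd2, Adcy5, Gng7, Ppp1r1b and Rgs9 passed, with r from 0.46 (Drd2 and Rgs9) to 0.74 and a median of 0.58. The median was 0.69 in the first and 0.41 in the second number set, where Ppp1r1b had 0.26 with both Rgs9 and Adcy5. Ppp1r1b and Gng7 had an r of 0.63 (0.71 and 0.37 in the number sets, 0.48 without 2 animals), and Rgs9 and Adcy5 also 0.63. Among the 3 peptide genes only Penk and Tac1 passed (r = 0.61, adjusted p = 1.82e-04 by permutation; rho = 0.54), with 0.64 and 0.57 in the number sets, and Pdyn had an r of 0.34 with each. Penk is made by indirect and Tac1 by direct pathway neurons.

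Between signaling and peptide genes, 3 of 15 pairs passed, all with Penk: Ppp1r1b (r = 0.53), Rgs9 (r = 0.47) and Drd2 (r = 0.33, adjusted p = 0.0476 by permutation; rho = 0.27, adjusted p = 0.116). The median of the 15 was 0.27. Tac1 had an r of 0.03 with Drd2 (permutation p = 0.747, -0.06 and 0.16 in the number sets), of 0.13 with Adcy5 and of 0.35 with Gng7 (adjusted p = 0.144 by permutation). Pdyn passed with none of the other 7 genes. The split by role is a description, and no test compared the classes.

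**Figure D3:**
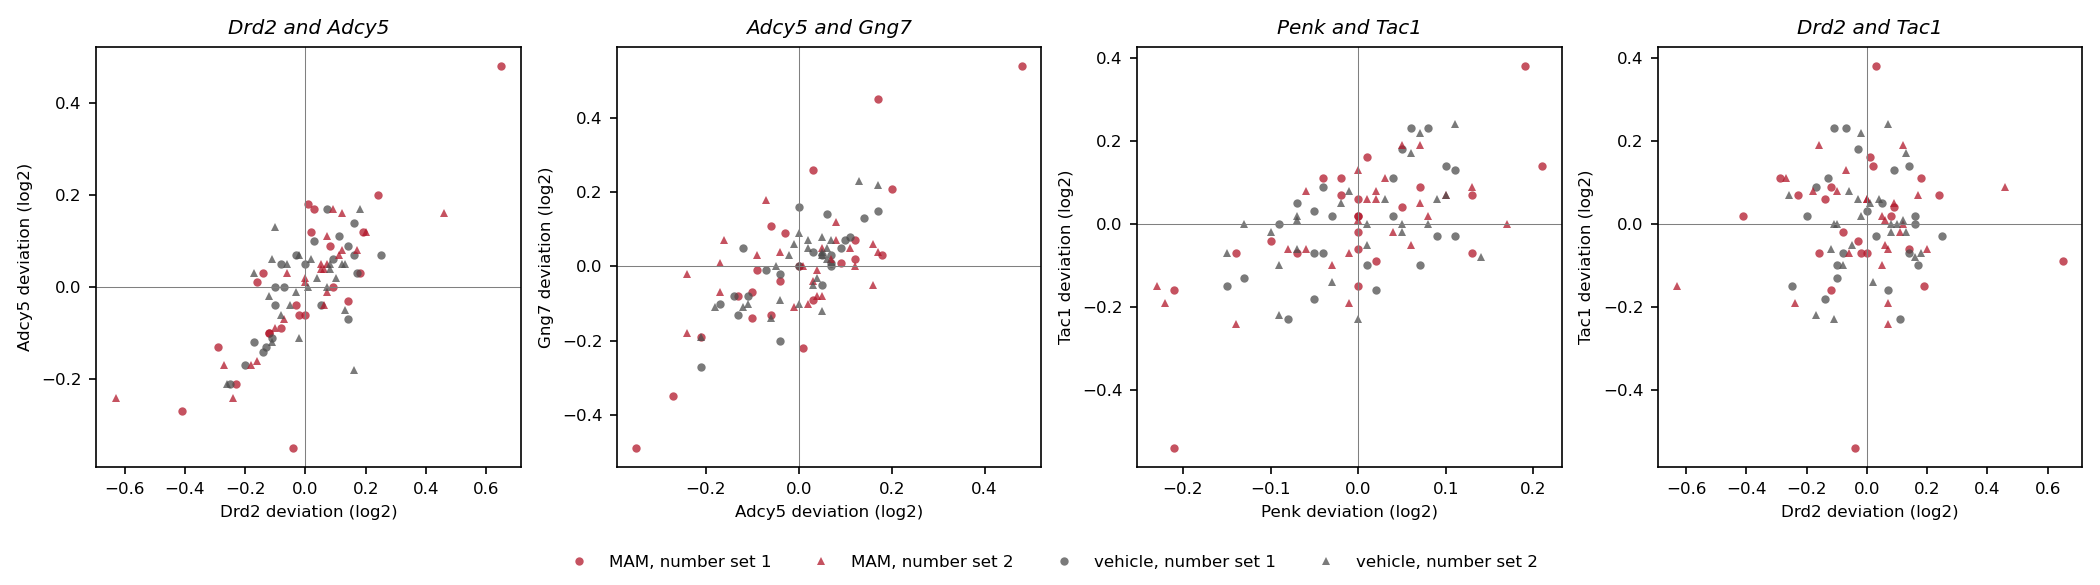
Deviations (log2, both axes) of 93 animals from the mean of their group and number set for 4 pairs of genes, colored by agent, with circles for number set 1 and triangles for number set 2. Drd2 with Adcy5 (r = 0.74), Adcy5 with Gng7 (r = 0.72) and Penk with Tac1 (r = 0.61) rise together, and Drd2 with Tac1 (r = 0.03) shows no slope.

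Single animals stood out in several genes at once. A wt animal given MAM 24 hr earlier deviated by 0.65 in Drd2, 0.62 in Ppp1r1b, 0.54 in Gng7, 0.48 in Adcy5 and 0.34 in Rgs9, but by 0.02 in Penk, -0.04 in Pdyn and -0.09 in Tac1. An Mgmt-/- animal given MAM 6 hr earlier was below 0 in all 8 genes, with -0.54 in Tac1, -0.49 in Gng7 and -0.35 in Adcy5. Another of the same group deviated by -0.63 in Drd2 and by -0.27 to 0.04 in the others. The median r over the 28 pairs was 0.35, and between 0.30 and 0.40 with any 1 animal left out.

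The strength of co-variation differed between subsets of the animals. The median r was 0.49 in the first and 0.26 in the second number set, where 12 and 3 pairs passed in sets of 45 and 48 animals. It was 0.50 in MAM animals and 0.24 in vehicle animals, where 10 and 3 pairs passed. These differences were not tested.

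**Figure D4:**
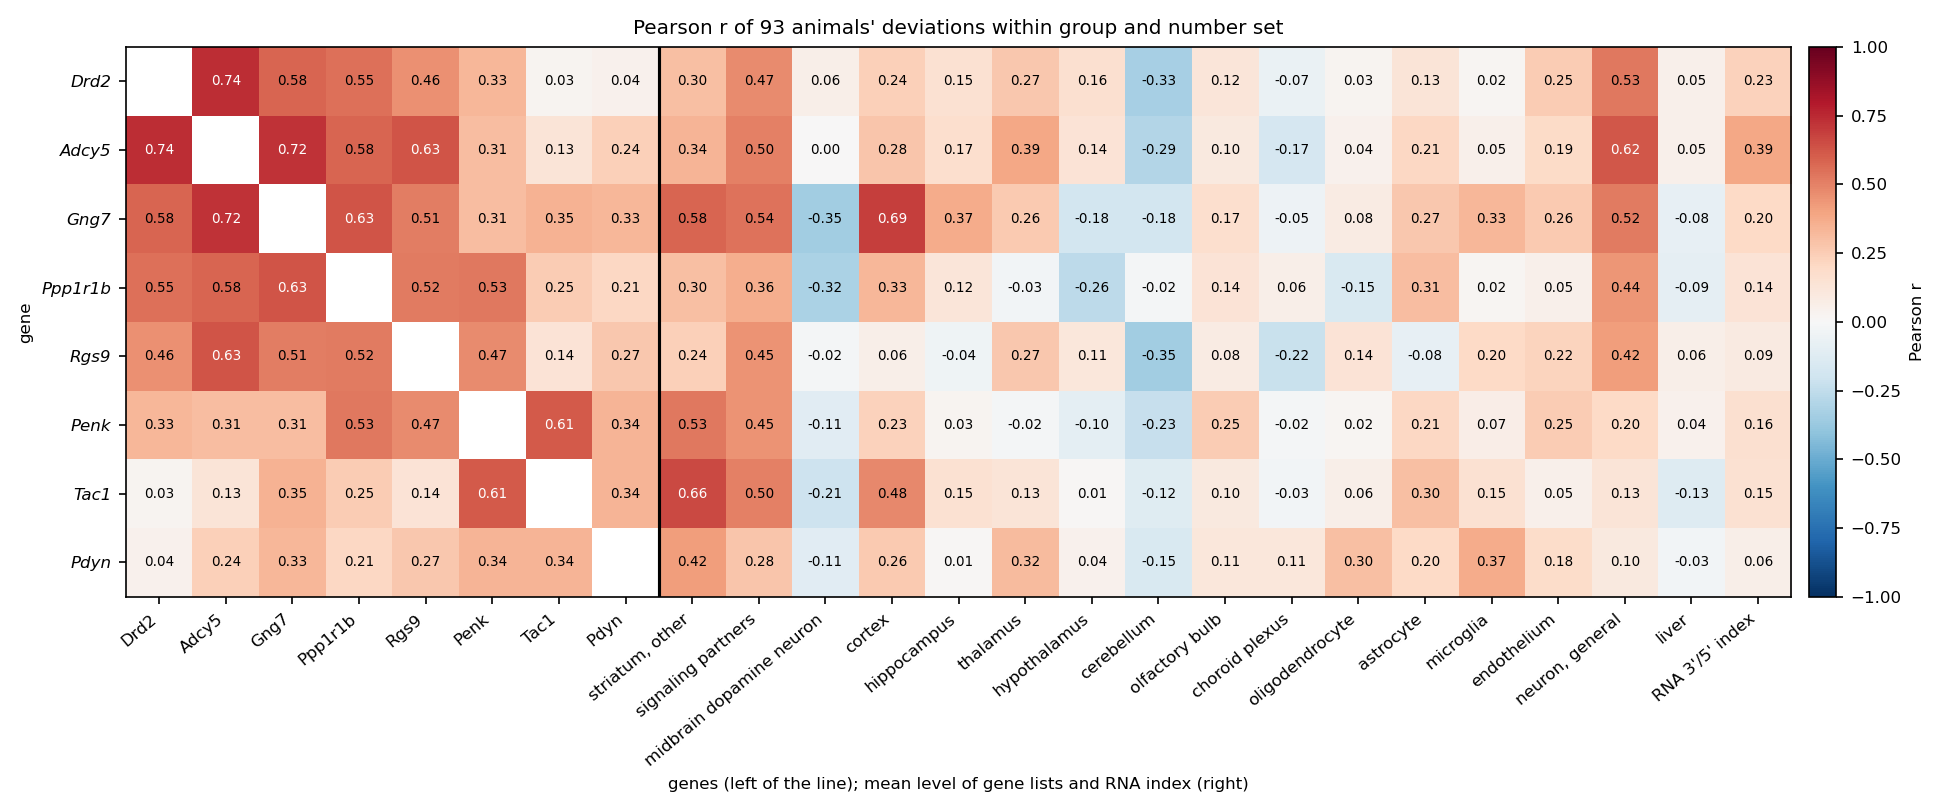
Pearson r (color and printed value) between the deviations of 8 genes, left of the line, and between each gene and the mean level of other gene lists or the 3'/5' index, right of it, over 93 animals. The block of signaling genes holds r of 0.46 to 0.74, Penk and Tac1 reach 0.61, and the cerebellum column is negative for all 8 genes.

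The levels of other regions and cell types were set beside this. Over 32 other striatal genes the mean level passed with 4 of the 8 genes, Tac1 (r = 0.66), Gng7 (0.58), Penk (0.53) and Pdyn (0.42), all adjusted by permutation. The mean of 31 dopamine, adenosine and opioid signaling partners, 6 of which are also in the striatal list, passed with 7, all except Pdyn, with r of 0.36 (Ppp1r1b) to 0.54 (Gng7). The mean of 8 general neuronal genes passed with the 5 signaling genes (Adcy5 0.62, Drd2 0.53, Gng7 0.52, Ppp1r1b 0.44, Rgs9 0.42) and with no peptide gene, where r was 0.10 to 0.20. The cortex list passed with Gng7 (r = 0.69) and Tac1 (0.48). Gng7 is also expressed outside the striatum. The cerebellum list ran against all 8 genes, with r from -0.35 (Rgs9, adjusted p = 0.0253 by permutation) to -0.02. It also passed with Adcy5 (r = -0.29). The thalamus list passed with Adcy5 (0.39) and the microglia list with Pdyn (0.37) and Gng7 (0.33). The remaining 9 of 16 lists, among them astrocytes, oligodendrocytes and endothelium, passed with none, and the liver list had r of -0.13 to 0.06. Whether the share of each region in the dissected tissue set these values was not tested.

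The 3'/5' index passed with Adcy5 alone (r = 0.39, adjusted p = 0.00584 by permutation; rho = 0.44), at 0.49 and 0.26 in the number sets, and had r of 0.06 to 0.23 with the others. After regression on that index 13 of the 28 pairs still passed and the median r was 0.34.

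Among 18186 other genes, those most like the mean deviation of the 8 genes held further striatal genes. The first was Ptpn5, the striatum-enriched phosphatase STEP (r = 0.83, 0.91 and 0.58 in the number sets). Inf2, an actin-severing formin (0.76), Pde1b, a calmodulin-dependent phosphodiesterase of medium spiny neurons (0.73), Tyro3, a receptor tyrosine kinase (0.70), and Gnal, the olfactory-type G-protein alpha subunit that drives striatal adenylyl cyclase (0.69), came next. Then followed Ctxn1 (0.69), R3hdm2 (0.68), Camkv (0.68), Dlgap4 (0.67), Rasl10b (0.67), Ankrd63 (0.67), Mgat5b (0.67), Rasd2 (0.66), Efnb3 (0.66) and Adgrb2 (0.66). The most opposed were Naa15 (-0.55), 5033404E19Rik (-0.54), Catsperd (-0.54), Atp6v0e (-0.53) and Washc2 (-0.53). The likeness was Pearson's r over 93 animals, and the points share the arrays and their normalization.

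Of 32 other striatal genes, 11 had an r above 0.5 with that mean, or 34.4%, against 2.13% of all genes, and 6 were among the first 100. They were Ptpn5, Pde1b, Gnal, Ankrd63, Rasd2, Syndig1l, Arpp21, Slc35d3, Drd1, Kcnip2 and Actn2. Drd1, the D1 receptor, had an r of 0.54, and Pde10a, the striatal phosphodiesterase, only 0.28. Gprin3 had the lowest r of the list, -0.31. The list was chosen with earlier results of these data known. The median was 0.40 for this list, 0.15 for 31 signaling partners, 0.28 for 8 cortical genes, 0.26 for 8 general neuronal genes, -0.29 for 8 cerebellar genes and -0.01 for all genes.

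**Figure D5:**
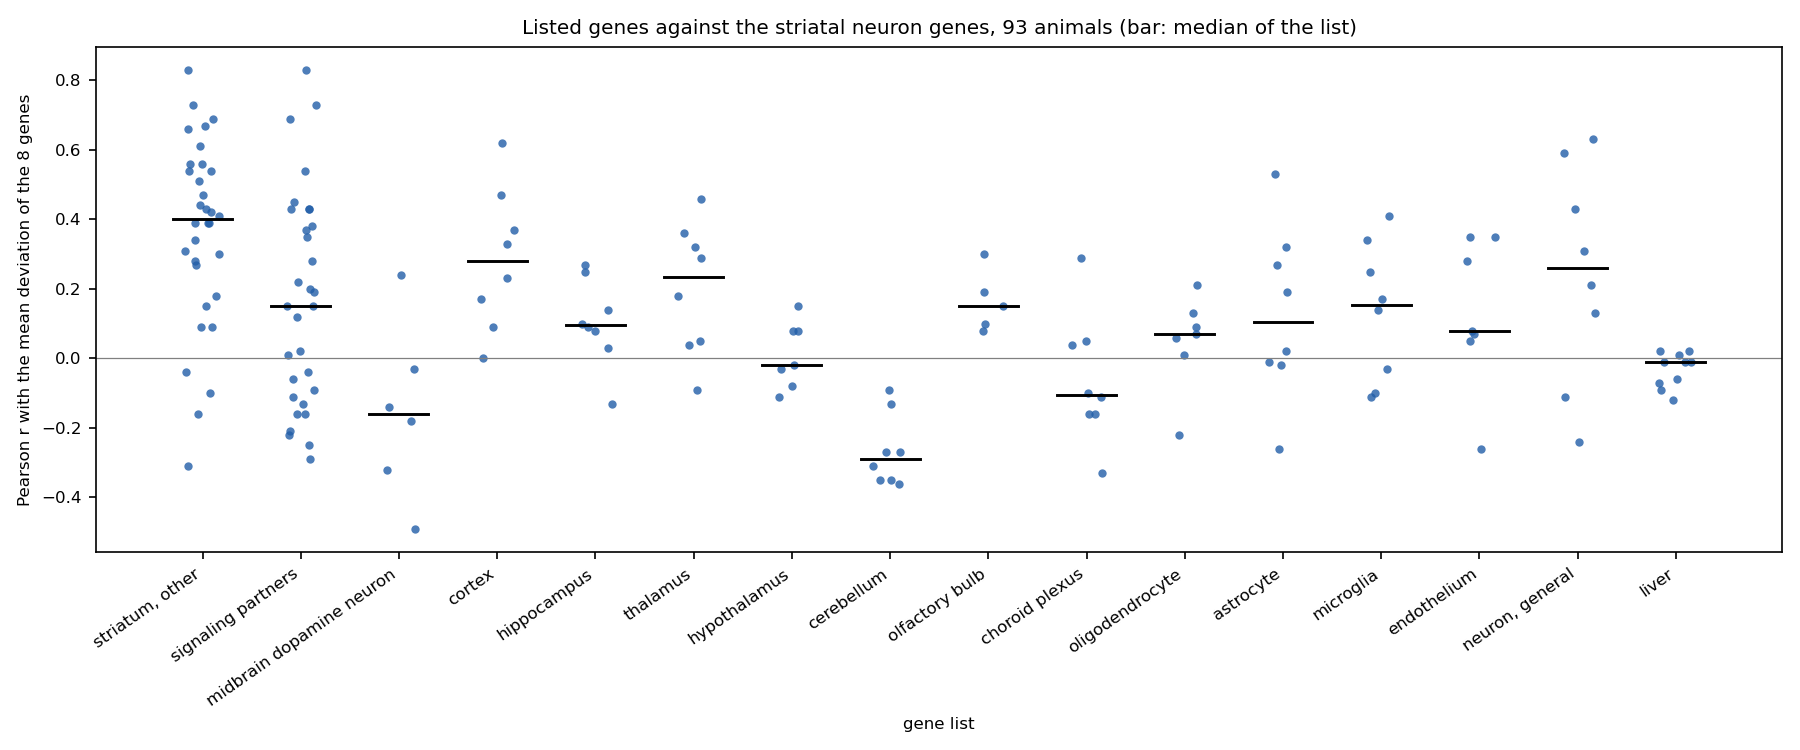
Pearson r of each listed gene with the mean deviation of the 8 striatal neuron genes over 93 animals (vertical axis), by list (horizontal axis), with 1 point per gene and a bar for the median of the list. The other striatal genes run from -0.31 to 0.83 with a median of 0.40, and all 8 cerebellar genes lie below 0.

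By single genes, Adcy5 was the closest of all genes to Drd2 and Tac1 the closest to Penk. Pde1b, followed by Adcy5, was closest to Rgs9, Tyro3 to Ppp1r1b (r = 0.74), Cyp46a1, the neuronal cholesterol hydroxylase, to Gng7 (0.79), Ptpn5 to Adcy5 (0.79) and Pde10a to Tac1 (0.75). Pdyn reached 0.50, with Cst3. Against the mean of the other 7 genes, Adcy5 and Gng7 each ranked 2 of 18187 genes (r = 0.74), Ppp1r1b 5 (0.69), Rgs9 68, Drd2 72 and Penk 155, whereas Pdyn ranked 1723 and Tac1 1899 (0.33 each). The second Adcy5 probe set had an r of 0.20 with the first, and the other 5 probe sets -0.25 to 0.32 with the brightest of their genes.

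The wider lists of striatal genes and of dopamine, adenosine and opioid signaling partners were counted between genotypes. Any probe set of a gene counted, so a gene could count in both directions. Each value given for a list gene is that of its called probe set with the smallest p, which need not be its brightest. Of 32 other striatal genes, 24, 22, 28 and 26 had a kept probe set at the 4 times. Between the vehicle groups 0, 0, 1 and 0 of them were higher in Mgmt-/- brains and 1, 5, 3 and 1 lower, with medians of -0.06, -0.05, 0.03 and 0.02. Of all genes with a kept probe set 1.47%, 1.58%, 1.95% and 0.0397% were higher and 3.98%, 4.86%, 3.38% and 0.119% lower. The 24 hr genes were Cnr1, the cannabinoid receptor (log2 difference -1.37, SE 0.13, limma adjusted p = 1.13e-07), Arpp21, a cAMP-regulated phosphoprotein (-0.97, SE 0.10), Foxp1 (-0.61), Pde10a (-0.49) and Tmem158 (-0.43). Syndig1l was the gene higher at 48 hr (0.48, SE 0.13, limma adjusted p = 0.027). Of 31 partners, 21, 21, 31 and 22 with a kept probe set, 0 were higher and 0, 1, 3 and 1 lower. By the brightest probe sets, averaged over the 4 times in the fit of all arrays, Spock3 alone of the 32 striatal genes was called, as lower. Of the 31 partners Gnb1 alone was called, as higher, where 4.11% of all probe sets were called in either direction.

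After MAM the same comparison gave 3, 0, 0 and 1 striatal genes higher and 2, 4, 6 and 0 lower, and for the partners 2, 0, 1 and 0 higher and 1, 1, 7 and 1 lower. Of all genes 3.15%, 1.9%, 4.05% and 0.932% were higher and 7.18%, 6.11%, 11% and 1.77% lower. Gnal, the alpha subunit, was lower at 48 hr (-0.89, SE 0.15, limma adjusted p = 1.68e-04) by 1 of its probe sets, and Ptpn5 was higher at 6 hr (0.51, SE 0.13, limma adjusted p = 0.0066). Foxp1 was lower at 24 hr (-1.69, SE 0.19, limma adjusted p = 1.06e-06). By the brightest probe sets, averaged over the 4 times, the only calls in the 2 lists were Gprin3, higher, and Pcsk1, a partner, lower. Of all probe sets 5.94% were called there. In response to MAM within Mgmt-/- brains, Gprin3 (1.07, SE 0.32, limma adjusted p = 0.05) and Rasd2, a striatal small GTPase (0.57, SE 0.16, limma adjusted p = 0.0306), were higher and Ebf1, a transcription factor of direct pathway neurons, lower (-0.46, SE 0.11, limma adjusted p = 0.0156) at 6 hr. Among the partners, Cpe, a peptide-processing carboxypeptidase, was higher at 6 hr (0.52, SE 0.12), Prkar2a, a regulatory subunit of protein kinase A, lower at 48 hr (-0.61, SE 0.10) and Pnoc, the nociceptin precursor, lower at 168 hr (-0.57, SE 0.08, limma adjusted p = 3.32e-04). Of all kept probe sets 1.83%, 0.461% and 0.493% were called at 6, 48 and 168 hr. Averaged over the 4 times, by the brightest probe sets, 2 of 32 striatal genes (Rasd2 and Gprin3, both higher) and 0 of 31 partners were called, against 1.07% of all probe sets.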

How the data were processed

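RNA of 94 mouse brains was measured on Affymetrix arrays. The authors deposited RMA values, which are log2 signals, made with affy by its default steps (background subtraction, quantile scaling, median polish). No source used here names the version or says if 1 run covered every array. Arrays carry no counts, so their number limits the precision. RMA's quantile step makes each array's distribution alike, so levels are relative to the array.

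The platform annotation names 1 gene for 34958 of 45101 probe sets, several for 932 and none for 9211. The terms, the laboratory filter and the thresholds followed the methods, which name a linear model. The moderated test of limma 3.58.1 (R 4.3.3) was chosen here, with the ordinary model as an alternative. Each time point was fitted on genotype, agent, their interaction, number set and its interactions with these. Probe sets with a joint p of at most 0.15 for the interactions with number set were set aside (39.3, 47.9, 78.8 and 71% were kept at 6, 24, 48 and 168 hr), and the rest were refitted without them. A call needed a Benjamini-Hochberg adjusted p below 0.05 and a fold above 1.3. A fit of all 93 arrays with 16 group means and number set, with no laboratory filter, gave averages over times and the F test. The array with liver RNA was left out. Correlations used Python 3.11.15. Scripts were tested on simulated data. Alternatives were other filters, weights, normalization, covariates and subsets.

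The genes and lists were chosen with earlier results of these data known. Named genes were all measured members, called list genes with the largest changes, and the 15 most and 5 least alike genes. Animals are separate mice, given by group and not by number. Promoters came from RefSeq.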

Additional observations from a re-analysis of the deposited data

Results flagged for a closer look

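For each of the 8 genes and 16 groups the highest and the lowest animal were compared with the rest of their group by Dixon's ratio, and 11 of 128 combinations were past its 95% critical value. Chance flags about 5% of groups, against 8.59% here. Drd2 had 4 of them: 1 animal in Mgmt-/- MAM at 6 hr (6.34, others 7.14 to 7.51), 1 animal in wt MAM at 6 hr (6.89, others 7.12 to 7.21), 1 animal in wt MAM at 24 hr (7.84, others 6.73 to 7.09) and 1 animal in wt MAM at 48 hr (6.52, others 6.90 to 7.06). The last of these was also low in Rgs9 (8.14, others 8.36 to 8.45). In the MAM groups Penk was low in 1 animal of wt MAM at 24 hr (10.39, others 10.66 to 10.78), Pdyn high in 1 animal of wt MAM at 6 hr (6.28, others 5.87 to 5.99) and Adcy5 low in 1 animal of Mgmt-/- MAM at 168 hr (9.29, others 9.53 to 9.60). In the wt vehicle groups Ppp1r1b was high in 1 animal at 6 hr (9.80, others 9.46 to 9.57), Gng7 low in 1 animal at 6 hr (8.68, others 8.80 to 8.85) and Tac1 low in 1 animal at 48 hr (10, others 10.36 to 10.50).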

How the results depend on the processing

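No paired analysis was possible because each animal number belongs to 1 animal and no number is shared between groups. Of the comparisons reported as counts, 58 values under other settings stayed within 1.5 times the reported count and 16 did not. The count of Mgmt-/- against wt vehicle calls, 2 as reported, was 1 with an ordinary linear model, 1 with cyclic loess normalization, 0 with the 3'/5' index as a covariate and no laboratory filter, 4 with no fold threshold and 1 in number set 1 alone. The call in number set 1 was Adcy5 at 168 hr (0.53, limma adjusted p = 0.0324), and Drd2 was not called there. The count was also 2 with array weights, but for Drd2 at 24 and 48 hr, and 2 in number set 2 alone, for Drd2 and Adcy5 at 6 hr. There Adcy5 was called by probe sets with means of 4.53 (0.67) and 3.95 (0.56) and not by its brightest. The count after MAM, 0 as reported, was 4 with no fold threshold, 1 with cyclic loess and 2 in number set 2 alone. The 4 include Tac1 at 6 hr by its probe set with a mean of 4.21. The 2 were Penk at 6 hr and Adcy5 at 48 hr, the latter by its probe set with a mean of 4.53. Calls for MAM in Mgmt-/- brains, 0 as reported, were 1 without the laboratory filter and 1 without it and with the index, Ppp1r1b at 168 hr in both, and 3 in number set 2 alone. The latter were Penk (-0.56) and Adcy5 (-0.39, by a probe set with a mean of 3.95) at 6 hr and Ppp1r1b (0.47) at 168 hr. With 1 animal left out the counts between vehicle groups, after MAM and for MAM in Mgmt-/- brains ran between 1 and 2, 0 and 1, and 0 and 1. The number of genes differing over the 16 groups, 4 as reported, was 0 with the liver array kept, 7 with array weights, 2 with the index, and 3 to 6 with 1 animal left out. The other counts of 0 stayed at 0. The count of correlated pairs, 14 as reported, was 3 in number set 2 alone and 3 in vehicle animals alone. Directions turned in 3 values, Tac1 (-0.86) and Ppp1r1b (-0.15) at 168 hr with the liver array kept and Adcy5 after MAM at 6 hr (-0.11) with the index and no laboratory filter. For the others the cause was not tested.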
